A study of Mus musculus with 8 samples.

Results

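The 42 genes described here encode 20 lysosomal hydrolases, 6 proteins that work beside them, 13 subunits and accessory proteins of the vacuolar proton pump, and the 3 transcription factors Tfeb, Tfe3 and Mitf. They were chosen by name and function, with earlier results of these data known, out of 41388 gene identifiers counted per library. Of the 42, 41 were among the 12002 genes with enough counts to test. The exception was Atp6v0d2, a pump subunit best known from osteoclasts, which had 2 counts in all, both in control replicate 2.

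Hydrolases cut glycans, lipids and proteins in the acidic lumen of the lysosome, and microglia depend on them to break down myelin, cell debris and other phagocytosed material. The proton pump (V-ATPase) supplies the acid: its V1 sector hydrolyses ATP in the cytosol and turns a rotor that drives protons through the V0 sector in the membrane. TFEB and its relatives TFE3 and MITF are basic helix-loop-helix factors that enter the nucleus when mTORC1 no longer phosphorylates them and switch on lysosomal genes through a CACGTG-centred promoter element. Inherited loss of single hydrolases or of their partners causes lysosomal storage diseases, many of which damage the brain.

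Microglia are the resident macrophages of the brain and spinal cord. RNA-seq libraries of cells sorted with CD11c, CD11b and CD45 came from 3 groups of C57BL/6 mice: 2 libraries of CD11c+ microglia from adult mice with neuromyelitis optica (NMO, an antibody-associated inflammatory disease that attacks astrocytes), 3 of CD11c- microglia from such mice, and 3 of microglia from control mice without the disease. For the controls the labels differ: the population field has them as CD11c negative, and the sample titles as total microglia from unmanipulated animals. The labels give no age beyond adult, no method of inducing NMO, no tissue region and no link between libraries and mice, so p-values reflect the spread among these libraries alone, and that spread may be technical. The labels give no batch either, and a difference in handling between NMO and control libraries cannot be told apart from disease.

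Libraries held 4943207 and 5914412 counts in NMO CD11c+ cells, 6437516 to 6819662 in NMO CD11c- cells and 7500815 to 9246061 in controls. The 6 microglia markers summed to 12492 and 15682 CPM (counts scaled to library size) in NMO CD11c+ libraries, 15406 to 19255 in NMO CD11c- libraries and 20126 to 21449 in controls. The 10 neutrophil markers summed to 15.3 and 19.7 CPM in NMO CD11c+ cells, with the defining marker Ly6g at 0 in both libraries, against 2067 to 10682 CPM in NMO CD11c- cells and 864 to 1774 CPM in controls. The 8 monocyte markers summed to 38.8 and 39.0 CPM in NMO CD11c+ cells, 187 to 979 CPM in NMO CD11c- cells and 77.7 to 151 CPM in controls. Most of that sum outside NMO CD11c+ cells was Chil3, at 0.613 and 0.705 CPM in NMO CD11c+ cells, 114 to 866 CPM in NMO CD11c- cells and 57.2 to 121 CPM in controls. Fn1 ran the other way against controls, at 25.1 and 20.3 CPM in NMO CD11c+ cells and 3.64 to 5.01 CPM in controls, and of 7 tested monocyte markers 1 was called higher and 1 lower there. Of the T cell markers, 3 of 4 were at 0 in every library. The 5 dendritic cell markers summed to 18.2 and 16.7 CPM in NMO CD11c+ cells, 14.8 to 18.8 CPM in NMO CD11c- cells and 7.70 to 12.1 CPM in controls. Of the 2 tested, 1 was called higher than in controls in each NMO group. The 6 border-associated macrophage markers summed to 122 and 56.2 CPM in NMO CD11c+ cells, 104 to 131 CPM in NMO CD11c- cells and 46.7 to 113 CPM in controls, with 0 called. The 9 cell isolation and immediate-early genes summed to 6555 and 28822 CPM in the NMO CD11c+ libraries, 5609 to 14573 CPM in NMO CD11c- libraries and 18052 to 36053 CPM in controls. All 9 had negative fold changes in NMO CD11c- cells against controls, with 2 called lower. Some of these marker levels move with the groups in each comparison that follows, and the part of all of them in the results was not tested. The 2 NMO CD11c+ libraries also differed from each other: across genes, a library's deviation from the mean correlated with GC content at a Spearman rho of 0.592 in NMO CD11c+ replicate 1 and at -0.299 to -0.0378 in the other 7 libraries, a description over genes with no test.

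The promoters of 8 of the 9 members with a CACGTG core are shown first because this core is the element that TFEB, TFE3 and MITF recognise. RefSeq (GRCm38.p6) held a window of 250 bases before to 50 bases after the start site for 36 of the 42 members. CACGTG was present in 4 of the 12 windows of members that were higher in NMO CD11c+ cells than in controls (below), in 2 of 12 windows of the other hydrolases and partners (Gla and Arsa), in 3 of 9 windows of the pump and in 0 of 3 windows of the transcription factors. In all 32851 windows of the genome table, 7.15% held it, and counted by gene, as the members are, it was in 8.09% of 27025 genes. The longer TCACGTGA was found in Mcoln1, Gla, Atp6v0d1 and Atp6v1a, against 0.974% of all windows and 1.12% of genes. The full CLEAR consensus, which contains it, was found in no member, against 0.326% of all windows and 0.37% of genes. Each of these motifs is its own reverse complement, so 1 search covers both strands, and every longer match contains the shorter ones. The stretches below start 60 bases before the first match (for Gla, at the edge of the window) and end 6 bases after the last, read 5′ to 3′ on the gene's strand; capitals mark CACGTG, or TCACGTGA where the longer motif was present. Atp6v0d1 is not shown, because its match lies at the start site.
Mcoln1, chr8:3500388-3500486, plus strand: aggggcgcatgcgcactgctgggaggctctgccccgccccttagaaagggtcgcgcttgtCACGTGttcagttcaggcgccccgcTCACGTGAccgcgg
Naglu, chr11:101069961-101070032, plus strand: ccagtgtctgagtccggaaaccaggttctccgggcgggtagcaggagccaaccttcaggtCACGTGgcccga
Glb1, chr9:114400970-114401041, plus strand: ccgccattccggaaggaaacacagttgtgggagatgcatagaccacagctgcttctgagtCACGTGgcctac
Gaa, chr11:119267763-119267834, plus strand: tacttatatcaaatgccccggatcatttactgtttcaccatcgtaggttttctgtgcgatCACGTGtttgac
Atp6v0b, chr4:117887336-117887425, minus strand: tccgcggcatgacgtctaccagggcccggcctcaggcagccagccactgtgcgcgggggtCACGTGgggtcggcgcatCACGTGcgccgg
Atp6v1a, chr16:44139378-44139451, minus strand: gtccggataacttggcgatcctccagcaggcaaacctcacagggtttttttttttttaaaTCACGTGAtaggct
Arsa, chr15:89477429-89477500, minus strand: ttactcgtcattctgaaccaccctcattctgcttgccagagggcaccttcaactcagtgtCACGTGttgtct
Gla, chrX:134601187-134601255, minus strand: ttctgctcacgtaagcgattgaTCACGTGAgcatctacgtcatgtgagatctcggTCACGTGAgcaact
The first 4 belong to members that were higher in NMO CD11c+ cells than in controls, the next pair to pump subunits and the last pair to hydrolases that did not pass the test. The matches began 71 and 46 bases before the RefSeq start site in Mcoln1, 73 in Naglu, 48 in Glb1, 140 in Gaa, 36 and 18 in Atp6v0b, 132 in Atp6v1a, 16 in Arsa, and 228 and 195 in Gla. GENCODE M21 starts Mcoln1 and Naglu 62 and 82 bases further upstream. The last 30 and 21 bases of their stretches are exonic there, and these hold the TCACGTGA of Mcoln1 and the CACGTG of Naglu. For Atp6v1a the outermost GENCODE start is 446 bases upstream of the RefSeq one, so its stretch lies downstream of that start, with 0 exonic bases. A match describes these letters only and says nothing of whether a factor was bound.

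The first comparison set CD11c+ microglia of NMO mice against control microglia. Of the 26 hydrolases and partners, 12 were higher in NMO CD11c+ cells and 0 were lower (edgeR quasi-likelihood test, Benjamini-Hochberg adjusted p under 0.05 over all 12002 genes), a share of 46.2%, beside 6.85% of all genes tested higher and 3.36% lower. At an unadjusted p under 0.05, 15 were higher and 1, Ids, was lower, where 15.6% of all genes were higher and 13.2% lower. DESeq2 called 13 higher and 0 lower (8.02% of all genes higher). The 12 were the hydrolases Hexa, Glb1, Gusb, Gaa, Idua, Man2b1, Naglu and Neu1 and the partners Gm2a, Psap, Npc2 and Mcoln1, with rises between 1.43-fold and 1.75-fold. Of the proton pump, 0 of the 12 tested members were called by edgeR in either direction, with 2 higher at an unadjusted p under 0.05. That count does not cover the whole pump: of its subunits outside the members, Tcirg1 and Atp6v1f were called higher and none lower (below). Of the 3 transcription factors, 0 were called by edgeR or DESeq2, and 1, Tfeb, was higher at an unadjusted p under 0.05. In these bulk libraries, a change in the share of cells that express a gene and a change in RNA per cell cannot be told apart.

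**Figure D1:**
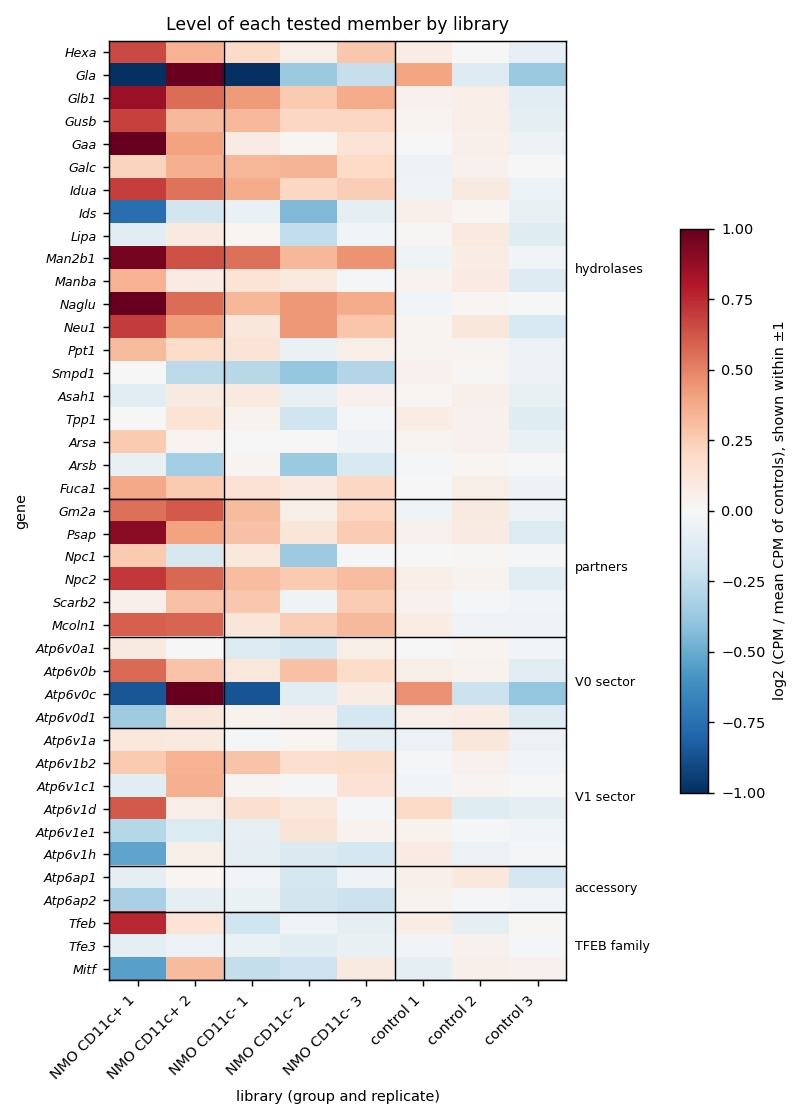
Level of each of the 41 tested genes in each library, as log2 of CPM over the mean CPM of the 3 controls (colour, shown within 1 in either direction). Columns are libraries, NMO CD11c+ at the left and controls at the right, and lines separate hydrolases, partners, pump sectors, accessory subunits and the TFEB family; red is above and blue below the control mean.

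As summed levels per transcript length (CPM per kb), the 26 hydrolases and partners reached 6499 and 5143 in the NMO CD11c+ libraries, 4767, 4263 and 4666 in NMO CD11c- libraries, and 4072, 4143 and 3726 in controls. Both NMO CD11c+ libraries lay above every control on this scale, and so did each NMO CD11c- library, in a sum to which abundant genes such as Psap add the most. As the mean log2 CPM over the 26 genes, which weights them equally, the values were 8.04 and 7.99 in NMO CD11c+ libraries, 7.80, 7.72 and 7.83 in NMO CD11c- libraries, and 7.73, 7.74 and 7.62 in controls. On that scale NMO CD11c+ libraries again lay above all controls, while NMO CD11c- replicate 2 lay within the control range. The pump summed to 1027 and 1224 CPM per kb in NMO CD11c+ libraries, 952, 1021 and 1030.5 in NMO CD11c- libraries, and 1071, 1003 and 915 in controls, with all groups overlapping. The 3 transcription factors summed to 136 and 127 CPM per kb in NMO CD11c+ libraries, 114, 116 and 119 in NMO CD11c- libraries, and 123, 125 and 123 in controls. The median log2 fold change of NMO CD11c+ over control was 0.31 for hydrolases and partners (range -0.44 to 0.81) and 0.07 for the pump (range -0.21 to 0.43), beside 0.01 for all genes tested. Members whose NMO CD11c+ and control values did not overlap were 16 higher and 2 lower of the 26 hydrolases and partners, where 22.2% of all genes were higher and 21.5% lower without overlap, and 2 higher and 2 lower among the pump subunits.

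**Figure D2:**
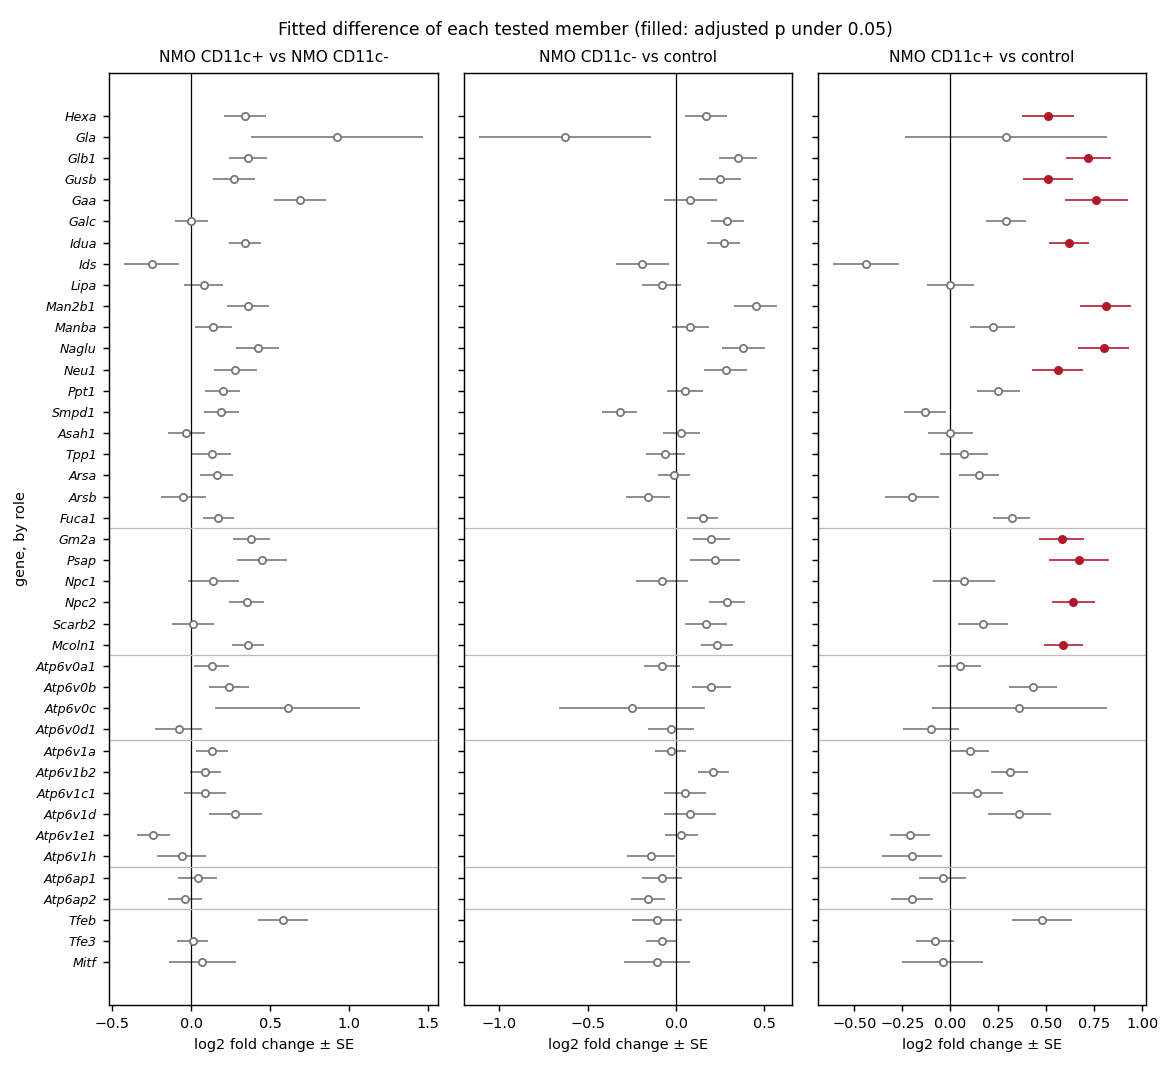
Fitted log2 fold change of each tested gene with its standard error (bars), in 3 panels for NMO CD11c+ against NMO CD11c-, NMO CD11c- against control and NMO CD11c+ against control. Filled points passed an adjusted p of 0.05; all 12 of them are hydrolases or partners in the NMO CD11c+ against control panel, between 0.51 and 0.81.

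Among the member hydrolases, Man2b1 (lysosomal alpha-mannosidase, which trims N-linked glycans; chr8:85083270-85098282, GRCm38) had the largest fold change. It stood at 2880.1 and 2313 CPM in NMO CD11c+ cells, 2174, 1869.7 and 2033 in NMO CD11c- cells, and 1439, 1562 and 1455 CPM in controls. The 3 groups did not overlap, and the log2 fold change of NMO CD11c+ over control was 0.81 (SE 0.13, edgeR adjusted p = 0.0054). Naglu (alpha-N-acetylglucosaminidase, a step of heparan sulfate breakdown; chr11:101070012-101077672) stood at 345 and 251 CPM in NMO CD11c+ cells, 215, 231 and 221 in NMO CD11c- cells, and 168, 174 and 172 CPM in controls. Its groups were also fully separated, with the controls within a few CPM of each other and a log2 fold change of 0.80 (SE 0.13, edgeR adjusted p = 0.00521). Glb1 (beta-galactosidase, which acts on GM1 ganglioside and keratan sulfate; chr9:114401076-114474898) stood at 169 and 137 CPM in NMO CD11c+ cells, 124, 111 and 119.9 in NMO CD11c- cells, and 95.4, 97.4 and 85.5 CPM in controls. Its log2 fold change was 0.72 (SE 0.12, edgeR adjusted p = 0.00512), again with no overlap between any of the groups. Idua (alpha-L-iduronidase, for heparan and dermatan sulfate; chr5:108660331-108684557) stood at 149.9 and 135 CPM in NMO CD11c+ cells, 120.0, 107 and 110.1 in NMO CD11c- cells, and 90.9, 98.9 and 89.2 CPM in controls. Its 3 groups did not overlap either, with NMO CD11c+ cells highest (log2 fold change 0.62, SE 0.10, edgeR adjusted p = 0.00573). Each of these 4 hydrolases was called in all 8 alternative settings and with each library left out in turn.

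The other 4 called hydrolases depended more on single libraries. Gaa (acid alpha-glucosidase, which degrades glycogen; chr11:119267887-119285454) stood at 419 and 266 CPM in NMO CD11c+ cells, 213, 204 and 221 in NMO CD11c- cells, and 202, 209 and 194 CPM in controls. NMO CD11c+ replicate 1 was far above the rest, replicate 2 was closer to the other groups, and NMO CD11c- cells overlapped controls. The log2 fold change of NMO CD11c+ over control was 0.76 (SE 0.16, edgeR adjusted p = 0.0186), and it was 0.40 (adjusted p = 0.0395) without NMO CD11c+ replicate 1. Leaving out a control ended the call, with adjusted p-values of 0.069, 0.0626 and 0.0796 without replicates 1, 2 and 3. Neu1 (sialidase; chr17:34931253-34935953) stood at 159 and 131 CPM in NMO CD11c+ cells, 106, 132 and 119 in NMO CD11c- cells, and 99.8, 106 and 88.1 CPM in controls, so that NMO CD11c+ cells lay above all controls but not above all NMO CD11c- libraries. Its log2 fold change over control was 0.56 (SE 0.13, edgeR adjusted p = 0.0287).

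Gusb (beta-glucuronidase; chr5:129989011-130003049) stood at 602 and 469 CPM in NMO CD11c+ cells, 469.8, 434 and 433 in NMO CD11c- cells, and 384, 393 and 350.4 CPM in controls. Every NMO library lay above every control, and NMO CD11c+ replicate 2 was level with the highest NMO CD11c- library (log2 fold change 0.51 over control, SE 0.13, edgeR adjusted p = 0.0373). Hexa (alpha subunit of beta-hexosaminidase, which degrades GM2 ganglioside; chr9:59539540-59565109) stood at 1397 and 1127 CPM in NMO CD11c+ cells, 1008, 922 and 1062 in NMO CD11c- cells, and 929.7, 887 and 834 CPM in controls. NMO CD11c+ cells were highest, while NMO CD11c- cells and controls overlapped (log2 fold change 0.51 over control, SE 0.13, edgeR adjusted p = 0.0389). The calls of Gusb, Hexa and Neu1 each ended without NMO CD11c+ replicate 1 (edgeR adjusted p = 0.124, 0.124 and 0.105 in that order), without NMO CD11c- replicate 3 (0.0702, 0.0725 and 0.0515), and without control replicate 1 (0.102, 0.0908 and 0.0865), 2 (0.0938, 0.113 and 0.0614) or 3 (0.128, 0.128 and 0.109). Gusb and Hexa were also lost without NMO CD11c- replicate 1 (0.0629 and 0.0714).

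**Figure D3:**
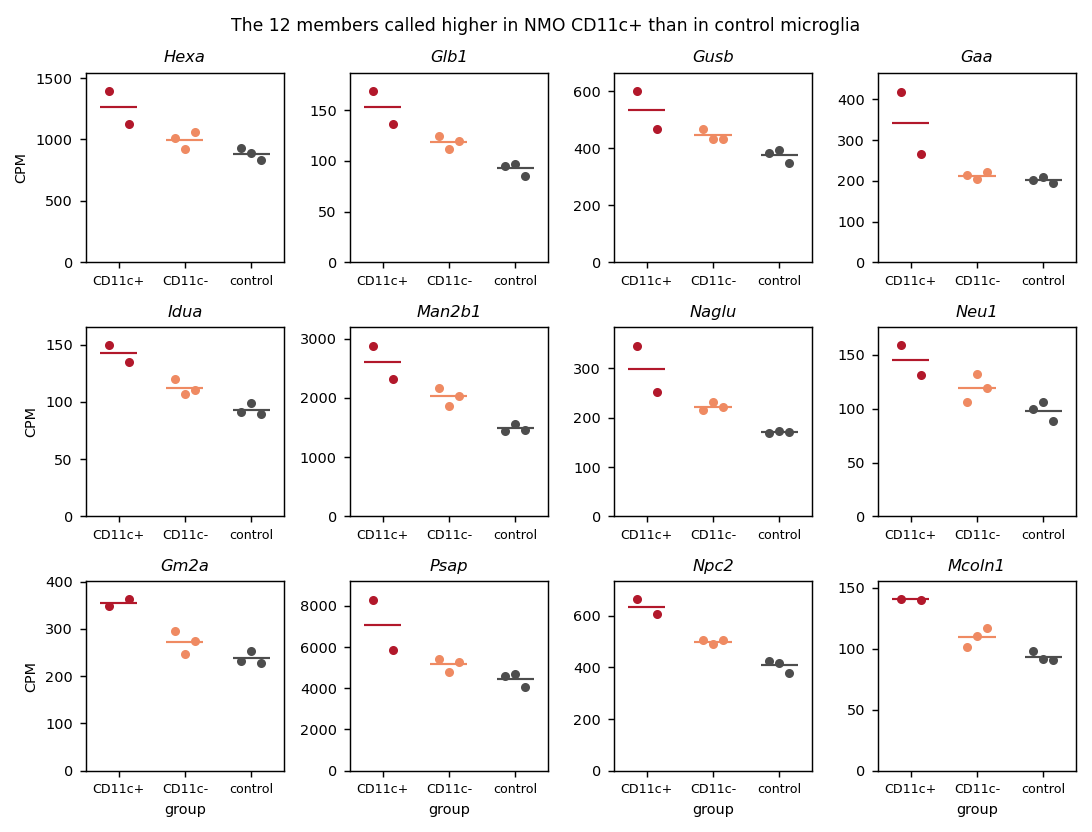
Level in CPM of the 12 genes that passed the test between NMO CD11c+ and control microglia, 1 panel per gene with its axis from 0. Points are libraries (2 NMO CD11c+, 3 NMO CD11c-, 3 control) and lines are group means; both NMO CD11c+ points lie above all control points in each panel.

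Of the 6 partners, 4 were called. Psap, the precursor of the saposins that present sphingolipids to hydrolases, had the highest level per length of all members, at 2666 CPM per kb in NMO CD11c+ cells, 1948 in NMO CD11c- cells and 1669.9 in controls (group means). In CPM it stood at 8295 and 5872 in NMO CD11c+ cells, 5423, 4813 and 5287 in NMO CD11c- cells, and 4582, 4691 and 4038 in controls (chr10:60277627-60302597). All 3 groups were separated, with NMO CD11c+ replicate 1 far above replicate 2 (log2 fold change over control 0.67, SE 0.16, edgeR adjusted p = 0.0261). The Psap call ended when NMO CD11c+ replicate 1 was left out (adjusted p = 0.0881), and likewise for NMO CD11c- replicate 1 (0.0509) or 3 (0.0584) and control replicate 1 (0.0759), 2 (0.072) or 3 (0.0987). Gm2a, the activator that lifts GM2 ganglioside out of the membrane for beta-hexosaminidase (chr11:55098115-55113029), stood at 348 and 364 CPM in NMO CD11c+ cells, 296, 247 and 275 in NMO CD11c- cells, and 231, 252 and 229 CPM in controls. The NMO CD11c+ libraries were close to each other and lay above all others (log2 fold change over control 0.58, SE 0.12, edgeR adjusted p = 0.0128), though the call ended without control replicate 1 (0.0609) or 3 (0.0619).

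Npc2, the soluble protein that carries cholesterol to Npc1 for export from the lysosome (chr12:84754562-84773152), stood at 665 and 606 CPM in NMO CD11c+ cells, 505, 490.2 and 505 in NMO CD11c- cells, and 426, 418 and 379.6 CPM in controls. The groups formed 3 separate levels (log2 fold change of NMO CD11c+ over control 0.64, SE 0.11, edgeR adjusted p = 0.00695). Its membrane-bound counterpart Npc1 stood at 377 and 281 CPM in NMO CD11c+ cells, 337, 245 and 311 in NMO CD11c- cells, and 315, 317 and 311 CPM in controls, with overlapping groups. Mcoln1, the lysosomal calcium channel TRPML1 (chr8:3500457-3515232), stood at 141 and 139.9 CPM in NMO CD11c+ cells, 101, 111 and 117 in NMO CD11c- cells, and 98.2, 91.4 and 90.6 CPM in controls. Its groups did not overlap, and the 2 NMO CD11c+ libraries were nearly equal (log2 fold change over control 0.59, SE 0.10, edgeR adjusted p = 0.00617). Npc2 and Mcoln1 were called in all 8 alternative settings and with each library left out. Scarb2, the receptor that carries glucocerebrosidase to the lysosome, was the remaining partner and was not called (log2 fold change 0.17).

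The 12 hydrolases not called between NMO CD11c+ and control cells covered several substrates. Galc, which degrades the myelin lipid galactosylceramide, averaged 58.5 ± 3.92 CPM in NMO CD11c+ cells and 47.8 ± 1.65 CPM in controls (SD, n = 2 and 3; log2 fold change 0.29, edgeR adjusted p = 0.0989). Fuca1 (alpha-fucosidase) and Ppt1 (palmitoyl-protein thioesterase) had log2 fold changes of 0.32 and 0.25 (edgeR adjusted p = 0.0648 and 0.17). Lipa (lysosomal acid lipase, for cholesteryl esters), Asah1 (acid ceramidase) and Tpp1 (tripeptidyl peptidase) lay near 0, at 0.00, 0.00 and 0.07, and the sulfatases Arsa and Arsb at 0.15 and -0.20. Manba (beta-mannosidase) and Smpd1 (acid sphingomyelinase) stood at 0.22 and -0.13. Ids, iduronate-2-sulfatase, which removes the sulfate ahead of Idua in the same chain, had the lowest fold change of the member hydrolases. It stood at 92.3 and 138 CPM in NMO CD11c+ cells, 149, 116 and 147 in NMO CD11c- cells, and 163, 159 and 149 CPM in controls. Both NMO CD11c+ libraries lay below all controls but within or below the NMO CD11c- range, and the difference did not pass the test (log2 fold change -0.44, SE 0.17, edgeR adjusted p = 0.124). Without NMO CD11c+ replicate 2 the log2 fold change of Ids over control was -0.77. Gla (alpha-galactosidase A, for globotriaosylceramide) was the least abundant member hydrolase per length, at 5.76 CPM per kb in controls. Its values of 7.97 and 36.3 CPM in NMO CD11c+ cells, 5.69, 14.2 and 15.6 in NMO CD11c- cells, and 24.0, 16.7 and 14.1 CPM in controls spread more within NMO groups than between groups (log2 fold change 0.29, SE 0.53).

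The number of called hydrolases and partners depended on which libraries entered. It was 8 without NMO CD11c+ replicate 1 (beside 5.24% of all genes higher) and 14 without NMO CD11c+ replicate 2, with 1 lower (16.2% of all genes higher). Leaving out NMO CD11c- replicate 3 gave 8 (5.02%), and leaving out control replicate 1, 2 or 3 gave 6, 7 and 6 (3.34%, 3.47% and 3.24% of all genes higher). Glb1, Idua, Man2b1, Naglu, Npc2 and Mcoln1 were called each time. The 12 called members had a median GC content of 53.7%, against 46.3% for the other 14 hydrolases and partners, 48.7% for the pump and 49.6% for all genes tested. NMO CD11c+ replicate 1, whose levels moved with GC, was above replicate 2 for 11 of the 12. It was also above replicate 2 for 7 of the 14 others, 4 of the 12 pump subunits and 5922 of the 12002 genes tested. NMO CD11c+ replicate 2 was above all 3 controls for each of the 12, a count that the choice of called members largely fixes. After a correction for GC content and length in each library, 12 hydrolases and partners were called higher (7.67% of all genes), 11 of them shared with the 12 above, with Galc called (log2 fold change 0.64) and Hexa not (0.31, adjusted p = 0.11). The fold change of Gaa was 0.50 with the correction.

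**Figure D4:**
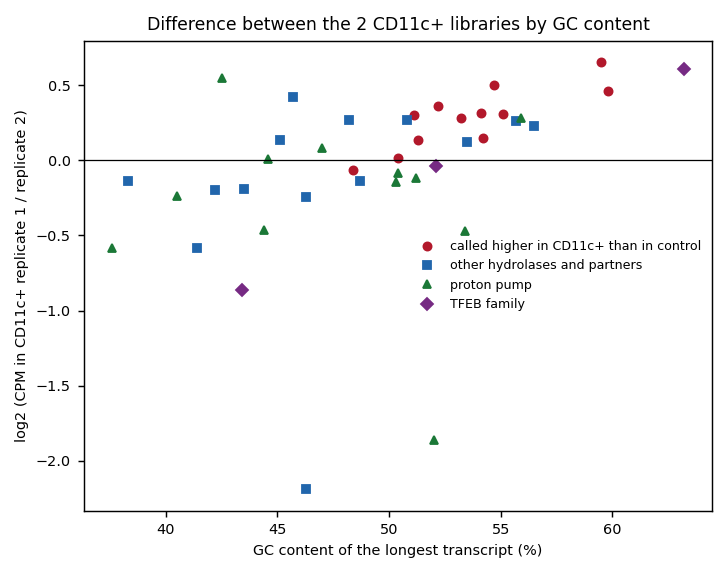
GC content of each tested member's transcript in percent (x axis) against log2 of CPM in NMO CD11c+ replicate 1 over replicate 2 (y axis), with 1 point per gene and symbols for called members, other hydrolases and partners, pump genes and the TFEB family. Of the 12 called members, 11 lie above 0, and their median GC content is 53.7%.

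The proton pump was split by subunit. In the V0 sector, Atp6v0b, a proteolipid of the rotor ring (chr4:117884326-117887333), had the highest fold change of the pump members tested. It stood at 397 and 326 CPM in NMO CD11c+ cells, 288, 328 and 304 in NMO CD11c- cells, and 279, 274 and 249 CPM in controls. Both NMO CD11c+ libraries lay above all controls, with a log2 fold change of 0.43 (SE 0.12, edgeR adjusted p = 0.0535). DESeq2 called it (adjusted p = 0.0104) together with Atp6v1b2 (0.0455). Atp6v0c, the main proteolipid of the ring, stood at 90.3 and 328 CPM in NMO CD11c+ cells, 89.8, 151 and 171 in NMO CD11c- cells, and 224, 141 and 125 CPM in controls. Like Gla, it was highest in NMO CD11c+ replicate 2 and low in NMO CD11c+ replicate 1 and NMO CD11c- replicate 1, with no group apart from the others (log2 fold change of NMO CD11c+ over control 0.36, SE 0.46).

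In the V1 sector, Atp6v1b2, the B subunit that forms the ATP-hydrolysing head with Atp6v1a, stood at 172 and 183 CPM in NMO CD11c+ cells, 175, 161 and 163 in NMO CD11c- cells, and 142, 148 and 141 CPM in controls. Every NMO library lay above every control, by a log2 fold change of 0.31 in NMO CD11c+ cells (SE 0.10, edgeR adjusted p = 0.072) and 0.21 in NMO CD11c- cells (SE 0.09, adjusted p = 0.223). Atp6v1e1, a stalk subunit, was lowest by fold change. It stood at 57.0 and 62.9 CPM in NMO CD11c+ cells, 65.4, 75.6 and 71.1 in NMO CD11c- cells, and 70.8, 68.9 and 68.1 CPM in controls. NMO CD11c+ cells lay below the other groups without overlap (log2 fold change against control -0.21, SE 0.11, edgeR adjusted p = 0.221). The catalytic subunit Atp6v1a averaged 88.8 ± 0.314 CPM in NMO CD11c+ cells, 81.2 ± 3.25 CPM in NMO CD11c- cells and 82.7 ± 5.72 CPM in controls (SD, n = 2, 3 and 3). The accessory subunits Atp6ap1 and Atp6ap2, the second also known as the prorenin receptor, had log2 fold changes of -0.04 and -0.20 against control, and the other 5 tested subunits lay between -0.20 (Atp6v1h) and 0.36 (Atp6v1d). Without NMO CD11c+ replicate 2, Atp6v0b and Atp6v1d were called higher than in controls (log2 fold change 0.57 and 0.61, edgeR adjusted p = 0.00481 and 0.00864), and Atp6v1h and Atp6ap2 lower (-0.53 and -0.33, adjusted p = 0.00717 and 0.0351). These 2 in each direction of 12 are near the share over all genes in that fit, 16.2% higher and 16.5% lower. Per length, the tested pump members in control cells were led by Atp6v0b at 267 CPM per kb, Atp6ap1 at 172 and Atp6v0c at 138. Atp6v1d, a rotor shaft subunit, was the lowest of these members at 12.7. Among pump subunits outside the members, Tcirg1 was above Atp6v0b in controls, at 332 CPM per kb, and Atp6v1g2 below Atp6v1d, at 5.53.

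**Figure D5:**
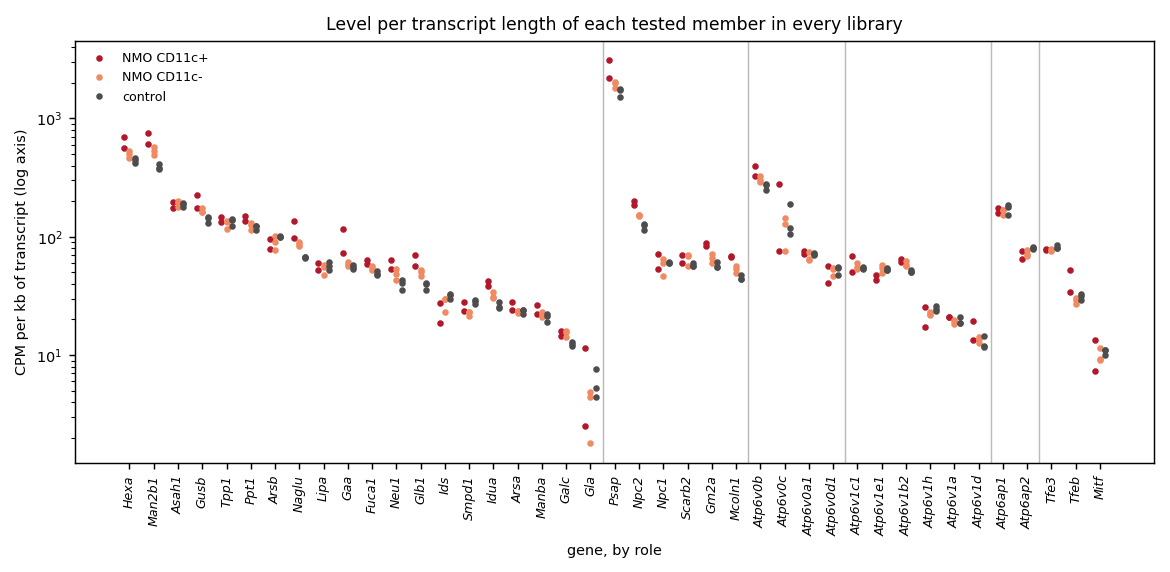
Level of each tested member per transcript length (CPM per kb, log axis) in every library, with genes ordered by role and control level; each point is a library, NMO CD11c+ left, NMO CD11c- in the middle and control right. Psap is highest in every library, and the points of Gla and Atp6v0c are the most scattered within groups.

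Of the transcription factors, Tfeb (chr17:47737030-47792419) stood at 121 and 78.9 CPM in NMO CD11c+ cells, 62.4, 69.4 and 67.4 in NMO CD11c- cells, and 75.5, 67.2 and 72.2 CPM in controls. Both NMO CD11c+ libraries lay above all others, replicate 2 by a few CPM. The difference did not pass the test against control (log2 fold change 0.48, SE 0.16, edgeR adjusted p = 0.0812) or against NMO CD11c- cells (0.58, SE 0.16, adjusted p = 0.161). Without a filter on low counts, Tfeb was called in both (adjusted p = 0.0333 and 0.00837). The value rested on NMO CD11c+ replicate 1. Against control the log2 fold change was 0.14 without that library (adjusted p = 0.475) and 0.75 without NMO CD11c+ replicate 2 (0.000725). Against NMO CD11c- cells it was 0.25 without replicate 1 (0.406) and 0.86 without replicate 2 (0.0014). The GC content of Tfeb, 63.2%, was the highest of the members, and with the GC and length correction its log2 fold change over control was 0.14 (adjusted p = 0.326). Tfe3 (chrX:7762560-7775202) stood at 251 and 258 CPM in NMO CD11c+ cells, 256, 250.2 and 255 in NMO CD11c- cells, and 264, 278 and 265 CPM in controls, with every NMO library a little below the controls (log2 fold change of NMO CD11c+ over control -0.08, SE 0.10, edgeR adjusted p = 0.636). Mitf (chr6:97807052-98021349) stood at 35.7 and 65.0 CPM in NMO CD11c+ cells, 44.1, 45.3 and 55.5 in NMO CD11c- cells, and 48.7, 54.1 and 53.7 CPM in controls. The NMO CD11c+ libraries bracketed all others (log2 fold change -0.04, SE 0.21, edgeR adjusted p = 0.911). The log2 fold change of Mitf over control was -0.55 without NMO CD11c+ replicate 2 and 0.31 without NMO CD11c+ replicate 1. Per length, Tfe3 was the most abundant of the family in controls at 82.1 CPM per kb, followed by Tfeb at 31.2 and Mitf at 10.7. These are transcript levels and do not report the phosphorylation or location of the proteins.

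The second comparison set CD11c- microglia of NMO mice against control microglia. No member was called by edgeR (0 of 41), beside 3.0% of all genes higher and 0.717% lower. At an unadjusted p under 0.05, 8 hydrolases and partners were higher (Glb1, Galc, Idua, Man2b1, Naglu, Neu1, Npc2 and Mcoln1) and Smpd1 was lower, where 11.7% of all genes were higher and 7.02% lower at that threshold. Of the pump, 1 subunit, Atp6v1b2, was higher at that threshold. DESeq2 called Man2b1 and Npc2 higher (4.66% of all genes). The median log2 fold change was 0.16 for hydrolases and partners and -0.03 for the pump. Man2b1 had the highest fold change, 0.45 (SE 0.12, edgeR adjusted p = 0.0762), and Gla the lowest, -0.63 (SE 0.49). Among the pump members Atp6v1b2 was highest and Atp6v0c lowest, at -0.25 (SE 0.41). Without overlap between groups, 11 of the 26 hydrolases and partners were higher, beside 17.6% of all genes.

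The number called in NMO CD11c- cells changed with the libraries that entered the fit. When only the NMO CD11c- and control libraries entered the fit, Glb1, Galc, Idua, Man2b1, Naglu and Npc2 were called higher and Smpd1 lower. These were 6 and 1 of 26, beside 6.90% of all genes higher and 3.59% lower, so the lower count is near that share. Leaving out either NMO CD11c+ library gave 6 higher and 1 lower as well (6.34% and 6.26% of all genes higher). Smpd1 averaged 62.2 ± 7.96 CPM in NMO CD11c+ cells, 54.5 ± 2.23 CPM in NMO CD11c- cells and 67.8 ± 2.59 CPM in controls (SD, n = 2, 3 and 3), with NMO CD11c- cells below all controls (log2 fold change -0.32, SE 0.10, edgeR adjusted p = 0.11). The 2 comparisons with control share the 3 control libraries, so their fold changes are given side by side only. Of the 12 members called in NMO CD11c+ cells, Man2b1, Naglu, Glb1, Npc2 and Idua had log2 fold changes over control of 0.81, 0.80, 0.72, 0.64 and 0.62 in NMO CD11c+ cells and 0.45, 0.38, 0.35, 0.29 and 0.27 in NMO CD11c- cells. For Gaa the values were 0.76 in NMO CD11c+ cells and 0.08 in NMO CD11c- cells, and for Galc 0.29 in both.

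The third comparison set CD11c+ against CD11c- microglia within NMO mice. No member was called by edgeR (0 of 41), beside 0.100% of all genes higher and 0.183% lower. At an unadjusted p under 0.05, 10 of the 26 hydrolases and partners were higher and 0 lower (7.90% of all genes higher and 7.54% lower), 0 pump subunits were higher and 1, Atp6v1e1, was lower (log2 fold change -0.24, SE 0.11, edgeR adjusted p = 0.32), and Tfeb was higher. DESeq2 called Gaa (log2 fold change 0.69, adjusted p = 0.00636) and Npc2 (0.35, 0.0483) higher, beside 0.892% of all genes. The median log2 fold change was 0.23 for hydrolases and partners and 0.09 for the pump, beside 0.01 for all genes, and 14 of the 26 hydrolases and partners were higher without overlap, beside 13.8% of all genes. Gla had the highest fold change, 0.92 (SE 0.54), and Ids the lowest, -0.25 (SE 0.17), and neither had separate groups. In the pump, Atp6v0c was highest at 0.61 (SE 0.46). Gaa, whose NMO CD11c- values overlapped the controls, had a log2 fold change of 0.69 between the NMO subsets (SE 0.16, edgeR adjusted p = 0.124). Leaving out NMO CD11c+ replicate 2 gave 11 hydrolases and partners higher and 1 lower (11.5% of all genes higher), and leaving out NMO CD11c+ replicate 1 gave 0 (0.0322%).

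Of 60 other lysosomal, pump and nutrient-sensing genes, 54 were tested, and 7 of them were higher and 0 lower in NMO CD11c+ cells than in controls (13% of those tested, beside 6.85% of all genes higher and 3.36% lower). Grn, the precursor of progranulin and granulins, stood at 4051 and 2877 CPM in NMO CD11c+ cells, 2785, 2579.7 and 2876 in NMO CD11c- cells, and 1830.0, 1814 and 1559 CPM in controls. Every NMO library lay well above every control, with a log2 fold change of 1.0 in NMO CD11c+ cells (SE 0.16, edgeR adjusted p = 0.00398) and 0.66 in NMO CD11c- cells (SE 0.14, adjusted p = 0.034). The second of these was the only one of the 54 called in NMO CD11c- cells (1.85%, beside 3.0% of all genes higher), and it was lost when any single NMO CD11c- or control library was left out (adjusted p between 0.0798 and 0.137). Gnptab, the phosphotransferase that tags hydrolases with mannose 6-phosphate, stood at 81.7 and 82.6 CPM in NMO CD11c+ cells, 64.3, 64.0 and 65.7 in NMO CD11c- cells, and 53.2, 50.3 and 51.0 CPM in controls. Its 3 groups formed tight, separate levels (log2 fold change of NMO CD11c+ over control 0.67, edgeR adjusted p = 0.00173). Flcn, folliculin, which acts with Rag GTPases to let mTORC1 phosphorylate TFEB, stood at 515 and 369.8 CPM in NMO CD11c+ cells, 362, 361 and 348 in NMO CD11c- cells, and 249, 256 and 247 CPM in controls. All NMO libraries lay above the controls (log2 fold change of NMO CD11c+ over control 0.82, edgeR adjusted p = 0.00581).

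Also called in NMO CD11c+ cells against controls were Atp6v1f (a V1 rotor subunit; log2 fold change 0.68, edgeR adjusted p = 0.0182), Glmp (a lysosomal membrane glycoprotein; 0.54, 0.0307) and Tcirg1 (0.58, 0.0378). Tcirg1 encodes the a3 isoform of the V0 stator and was singled out after its values were seen. The a isoforms place the pump in different membranes, and per length Tcirg1 led them, at 497 CPM per kb in NMO CD11c+ cells, 391 in NMO CD11c- cells and 332 in controls (group means). The member Atp6v0a1 stood at 74.1 CPM per kb in NMO CD11c+ cells, 67.8 in NMO CD11c- cells and 71.7 in controls. Atp6v0a2 stood at 41.1 CPM per kb in NMO CD11c+ cells, 42.8 in NMO CD11c- cells and 44.0 in controls. The Tcirg1 and Glmp calls were lost when any control was left out (edgeR adjusted p between 0.0796 and 0.126), and those of Tcirg1, Glmp and Atp6v1f also without NMO CD11c+ replicate 1 (0.138, 0.0986 and 0.071). Atp6v1f was further lost without control replicate 2 (0.0651) or 3 (0.0764), and Tcirg1 and Glmp without NMO CD11c- replicate 1 (0.0613 and 0.055) or 3 (0.0711 and 0.0549). None of the 54 was called between NMO CD11c+ and NMO CD11c- cells by edgeR or DESeq2, and 10 were higher and 1 lower at an unadjusted p under 0.05 in edgeR, where 7.90% of all genes were higher and 7.54% lower.

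Exon bases shared with another gene limit the counts of 11 members, since the strand setting of the counting is not given in the sources used here. Among those called, Hexa shares 255 bases with Tmem202 and Idua 141 with Slc26a1 and 124 with Dgkq, all on the opposite strand, and Glb1 shares 165 with Tmppe on the same strand. Atp6v0b shares 243 bases with the antisense gene Gm12841. Atp6v0c has processed pseudogenes in the annotation, and reads that match them equally may be missing from its count.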

How the data were processed

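Gene counts are as deposited by the authors, 1 table of whole-number counts per library with 41388 identifiers each. Per the submitters' processing notes, the tools were STAR, HTSeq 0.5.4 and edgeR 3.12.0 and the build was GRCm38; how strand was handled and which annotation was used is not given in the sources used here. Symbols, coordinates, lengths and GC content were taken from GENCODE M21, which named 40340 of the identifiers, and promoters from RefSeq GRCm38.p6. There were 0 columns of per-sample values left unused.

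Tests ran under edgeR 4.0.16 with limma 3.58.1 and R 4.3.3: filterByExpr with a minimum count of 10, TMM scaling, and 1 quasi-likelihood fit of all 8 libraries (prior degrees of freedom 5.08, common dispersion 0.0223). Calls needed an adjusted p (Benjamini-Hochberg, over all 12002 genes tested) under 0.05. CPM use the library size of the tested genes after TMM scaling, and CPM per kb divide by transcript length. All p-values are two-sided. Alternatives were RLE, upper quartile and library-size scaling, no filter, a minimum count of 30, DESeq2 1.42.0, only the groups compared, a GC and length correction (mgcv 1.9.3; 99.53% of tested genes have both values) and each library left out. The pipeline was also run on simulated counts with known fold changes. They held no shift with GC content in any library, so that run cannot show how such a shift affects the calls.

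The members, the 60 companion genes and the markers were chosen with earlier results of these data known. Members given in every library are those called, the transcription factors, and those with the highest and lowest fold change of hydrolases with partners and of the pump in each comparison. Npc1 was added after its values were seen. Companions are named if called, at most 6 per comparison by smallest adjusted p, with exceptions said in the text; 1 of those called is not reported here.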

Additional observations from a re-analysis of the deposited data

How the results depend on the processing

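In NMO CD11c+ cells against controls, 12 hydrolases and partners were called higher in the main analysis, beside 6.85% of all genes. With only the groups compared, 7 were called higher, beside 3.93% of all genes. With no low-count filter, 1 was called lower (Ids, log2 fold change -0.48, edgeR adjusted p = 0.0187), beside 5.11% of all genes lower. Of the 12 tested pump members, upper quartile scaling and a minimum count of 30 each called 1 higher (Atp6v0b), beside 7.22% and 7.97% of all genes. DESeq2 called 2 of them higher, beside 8.02% of all genes. The GC and length correction called 1 (Atp6v1c1), beside 7.67%. In NMO CD11c- cells against controls, DESeq2 called 2 hydrolases and partners higher, beside 4.66% of all genes. The fit of only the groups compared called 6 higher and 1 lower, beside 6.90% and 3.59% of all genes. The GC and length correction called 2 higher (Man2b1 and Naglu) and 1 lower (Smpd1), beside 4.67% and 2.67% of all genes. Between the NMO subsets, 2 were called higher by DESeq2 (Gaa and Npc2), beside 0.892% of all genes. With no low-count filter 2 were called higher (Gla and Gaa), beside 1.25%. The cause of these differences was not tested. No call changed sign under the alternatives run.

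With each library left out in turn, hydrolases and partners called higher ranged from 6 to 14 (NMO CD11c+ against control), 0 to 6 (NMO CD11c- against control) and 0 to 11 (NMO CD11c+ against NMO CD11c-), and those called lower from 0 to 1 in each. Their median log2 fold change ranged from 0.29 to 0.42, 0.12 to 0.19 and 0.15 to 0.33 in the same order of comparisons. Pump subunits called higher ranged from 0 to 2 in NMO CD11c+ against control, with 0 to 2 lower and a median from -0.11 to 0.11; between the NMO subsets from 0 to 2, with 0 to 1 lower and a median from -0.09 to 0.11; and none was called in NMO CD11c- against control (median -0.07 to 0.02). Where 1 NMO CD11c+ library remained, it was assumed to vary like the other groups. The shares of all genes called higher in those fits are given above. Over all genes, leaving out a control or NMO CD11c- library gave 3.24% to 6.77% higher in NMO CD11c+ against control and 0.857% to 3.53% lower. In NMO CD11c- against control these shares were 1.03% to 2.74% and 0.151% to 0.344%. Between the NMO subsets they were 0.0251% to 0.143% and 0.0587% to 0.571%. Of the named calls, Gusb and Tcirg1 were also lost with library size only (both adjusted p = 0.052), and Gaa (0.0625), Gusb (0.1), Hexa (0.107), Neu1 (0.0633), Psap (0.0935), Glmp (0.0871) and Tcirg1 (0.102) with only the groups compared.

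Over all genes, calls between the NMO subsets were 12 higher and 22 lower in the main analysis, 8 and 24 with library size only, 264 and 443 with no filter, 107 and 161 with DESeq2, 54 and 55 with the GC and length correction, and 2 and 3 with only the groups compared. No paired analysis was possible because no label ties a library to a mouse or a day and the replicate numbers are names only. Only 2 NMO CD11c+ libraries, 1 of which moved with GC content, limit every comparison that uses them; Gla, with as few as 38 counts in a library, has the widest error among members.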
